A study of Homo sapiens with 4 samples.

Results

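Protocadherins and numbered cadherins were examined after depletion of SSRP1 in BE(2)C, a human neuroblastoma cell line. Members were all genes whose platform symbol was CDH or PCDH followed by the number or letters of a family member, with 1 probe set per symbol, and 34 of the 14812 named genes met this rule. The set was almost wholly protocadherin: 13 non-clustered protocadherins, the 16 genes and 3 pseudogenes of the beta cluster, and the cadherins CDH23 and CDH26. RefSeq holds 97 symbols of this form, and its 17 alpha cluster symbols, 24 gamma cluster symbols and 21 of its 23 numbered cadherins, classical CDH1 and CDH2 included, were not analysed here.

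Cells were grown in DMEM with serum and transfected, using Lipofectamine, with siRNA to SSRP1 or a non-targeting siRNA as control. SSRP1 is a subunit of the histone chaperone FACT, and the labels name 1 reagent for SSRP1. RNA was taken 72 hours later from 2 samples of each group and hybridised to Human Gene 2.0 ST arrays, 1 array per sample. The labels do not say whether the samples were separate cultures, so p-values describe the spread between these arrays, which may hold technical variation alone. Values are the authors' RMA expression values on the log2 scale, in which a difference of 1 is a doubling. An RMA value depends on the probes as well as on the RNA, so levels were compared between arrays and not between genes.

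Protocadherins are calcium-dependent adhesion proteins of the cadherin superfamily, most abundant in the nervous system. The clustered genes lie in tandem, each variable exon has its own promoter, and a neuron that uses a few of them acquires a surface identity read by homophilic binding. Non-clustered protocadherins lie apart in the genome and act in cell sorting, axon growth and synapse formation, many through the WAVE actin regulators. Some are silenced by promoter methylation in tumours.

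Most promoters of the beta cluster share a short word. Promoters of 250 bases before to 50 bases after the start were taken from RefSeq on GRCh38.p14, which had an entry for 27 of the 34 members; the others are PCDH20, PCDH10, PCDHB6, PCDHB11 and the 3 pseudogenes. The 9-base word GGTGGCGCT was found by counting the words shared by the beta promoters, so its presence there is a description. Searched on both strands, it was in 13 of 14 beta promoters, always on the gene's strand and starting between 84 and 2 bases before the start site. It was in 0 of the 15 non-clustered promoters, in 0 of the 5 CDH23 and CDH26 promoters and in 0.501% of all 35116 promoters in the table. A word that rare would be missing from most small sets of promoters, so these counts of 0 set neither class apart. As background, clustered protocadherin promoters are known for a conserved element that is bound by the insulator protein CTCF. Stretches of 47 bases are shown for the beta gene with the smallest p, for others with larger and smaller changes, and for PCDHB1, with the word, or its nearest match in PCDHB1, in capitals.
PCDHB9, chr5:141187055-141187101, plus strand: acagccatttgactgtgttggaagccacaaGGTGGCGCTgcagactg
PCDHB14, chr5:141223244-141223290, plus strand: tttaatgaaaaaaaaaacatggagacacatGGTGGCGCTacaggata
PCDHB7, chr5:141172547-141172593, plus strand: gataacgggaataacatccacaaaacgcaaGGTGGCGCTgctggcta
PCDHB16, chr5:141182291-141182337, plus strand: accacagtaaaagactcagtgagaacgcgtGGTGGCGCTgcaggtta
PCDHB12, chr5:141208624-141208670, plus strand: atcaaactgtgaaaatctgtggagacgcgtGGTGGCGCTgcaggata
PCDHB1, chr5:141051318-141051364, plus strand: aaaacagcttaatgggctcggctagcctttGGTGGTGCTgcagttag
PCDHB1 differs from the word by C6T, counted from the word's 5' base, and was the 1 beta promoter without it.

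Base composition also differed between the classes. Over the 250 bases before the start the beta promoters held 30.8 to 44.8% G and C, with a median of 39.6%, against 28.8 to 72% with a median of 56.4% in the non-clustered promoters and a median of 58% in all promoters. The 100 bases before the start are shown for the non-clustered members with an unadjusted p under 0.05 that had an entry, and for PCDHB9, with each CpG in capitals.
PCDH9, chr13:67230337-67230436, minus strand: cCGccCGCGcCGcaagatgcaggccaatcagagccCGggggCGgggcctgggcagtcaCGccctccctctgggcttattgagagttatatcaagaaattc
PCDH17, chr13:57631644-57631743, plus strand: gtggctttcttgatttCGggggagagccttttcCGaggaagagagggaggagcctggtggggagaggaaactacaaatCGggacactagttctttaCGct
PCDH19, chrX:100410274-100410373, minus strand: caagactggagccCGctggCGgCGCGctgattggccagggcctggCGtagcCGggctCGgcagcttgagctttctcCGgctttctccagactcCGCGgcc
PCDHB9, chr5:141187061-141187160, plus strand: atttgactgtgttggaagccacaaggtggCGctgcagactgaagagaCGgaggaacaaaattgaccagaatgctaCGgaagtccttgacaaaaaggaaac
PCDH9 and PCDH19 had 7 and 10 CpG in this stretch, PCDH17 had 4 and PCDHB9 had 3. Methylation was not analysed here, and these letters carry no test.

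The siRNA target was lower on both treated arrays. SSRP1 read 9.05 and 9.23 in the controls against 7.42 and 6.97 after SSRP1 siRNA, a log2 change of -1.95 ± 0.17 (SE, limma adjusted p = 0.0479). Of 11 noradrenergic neuroblastoma markers 9 were measured, with group means from 6.69 to 9.59 in the controls and from 6.35 to 9.76 after SSRP1 siRNA. These are values of different probe sets and do not by themselves show which cell type is present. In the fit over all genes, with p adjusted by the Benjamini-Hochberg method, 14 genes (0.0945%) passed at an adjusted p under 0.05.

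None of the 34 members passed that limma test, and the smallest adjusted p was 0.103, for PCDH20. At an unadjusted p under 0.05 there were 6 members, or 17.6%, against 12.6% of all genes. All 6 were higher with SSRP1 siRNA, where the share of all genes was 6.56%, and 0 were lower, where it was 6.03%. Of these 6, 4 were non-clustered protocadherins (PCDH20, PCDH9, PCDH17 and PCDH19) and the others were PCDHB9 and the pseudogene PCDHB18P. A change of at least 0.5 upward was measured for 3 members, against 2.26% of all genes, and one of at least 0.5 downward for 0 members, against 1.57%. Both SSRP1 siRNA arrays lay above both control arrays for 13 members (38.2%, against 21.8% of all genes) and below them for 4 (11.8%, against 22.5%), namely PCDH8, PCDHB1, CDH23 and CDH26. In all, 23 of 34 changes were above 0, where 48.3% of all genes were, with a median of 0.08 against -0.007 over all genes. Several members changed sign with 1 array left out, as named below. The members share a family and, in the beta cluster, similar sequence, so these shares are not independent counts. In whole cultures such as these, more or fewer cells of a kind and more or less RNA per cell cannot be told apart.

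**Figure D1:**
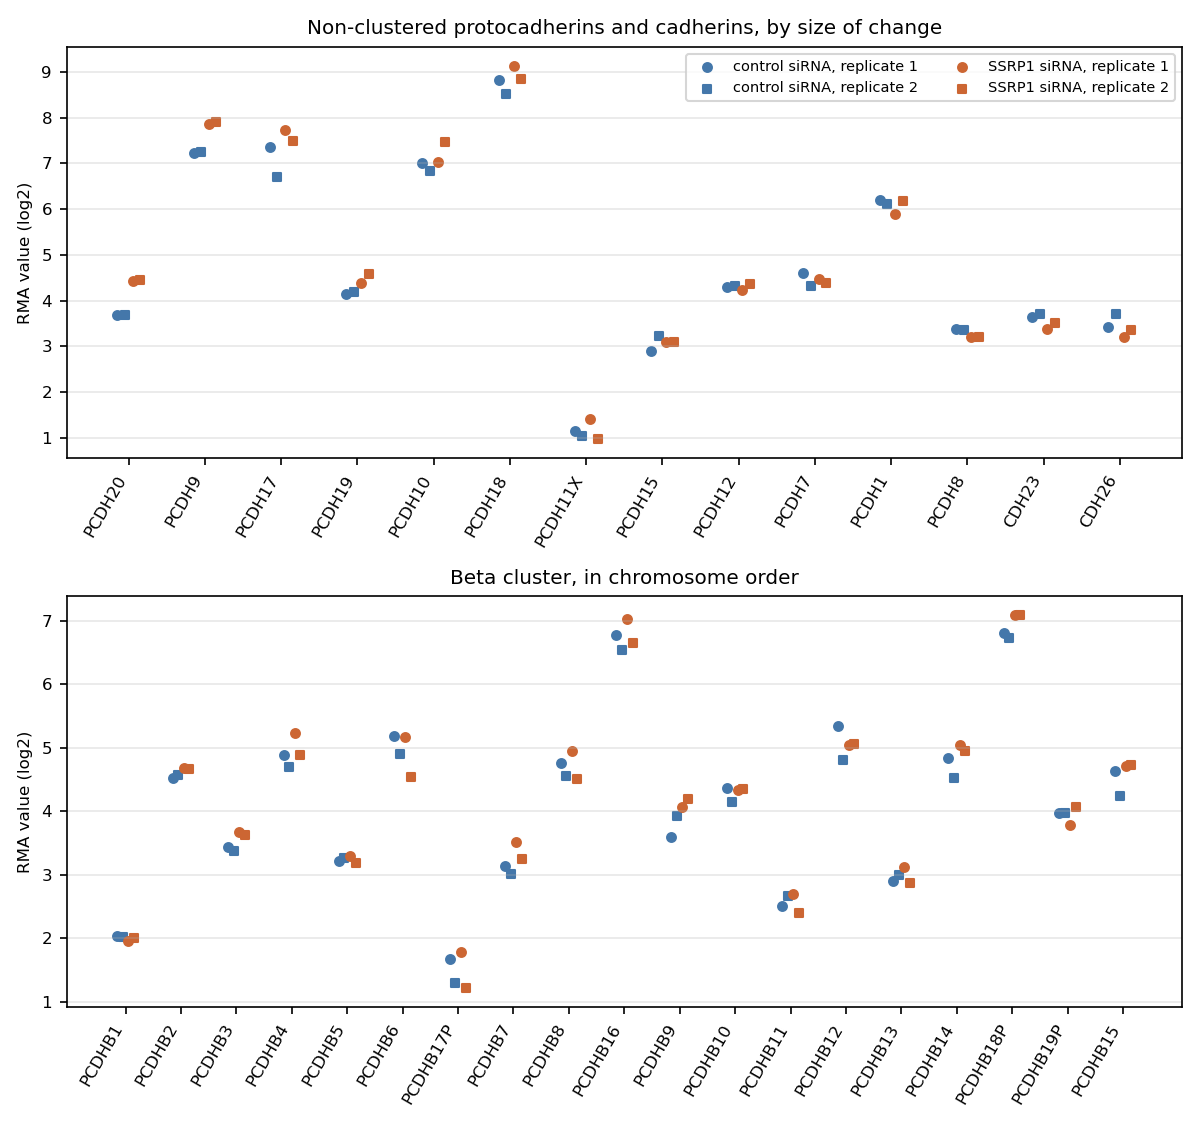
RMA values (log2) on each of the 4 arrays for the non-clustered protocadherins and the 2 cadherins, ordered by change (top), and for the beta cluster in chromosome order (bottom). PCDH11Y is not drawn. PCDH20 and PCDH9 show the clearest gap between groups, with control arrays at 3.69 and 3.68 for PCDH20 and SSRP1 siRNA arrays at 4.42 and 4.44.

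Among the non-clustered protocadherins, PCDH20, PCDH9 and PCDH17 had the largest upward changes of all members. PCDH20 (gene ID 64881, probe set 16779595), a protocadherin of the developing brain, read 3.69 and 3.68 with control siRNA and 4.42 and 4.44 with SSRP1 siRNA. Replicates nearly coincided in both groups, and the nearest arrays of the groups lay 0.73 apart. The log2 change was 0.74 ± 0.10 (SE, 95% interval 0.50 to 0.98), or 1.67-fold, with a limma p of 0.000315 before and an adjusted p of 0.103 after adjustment over all genes.

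PCDH9 (gene ID 5101, probe set 16779667), a delta1 protocadherin of neurons, read 7.22 and 7.25 with control siRNA and 7.85 and 7.90 with SSRP1 siRNA. Again the replicates were close and the groups did not overlap. The log2 change was 0.64 ± 0.10 (SE, 95% interval 0.40 to 0.89), or 1.56-fold, with a limma adjusted p of 0.117. With a variance trend in limma both genes passed, at an adjusted p of 0.0454 for PCDH20 and 0.0132 for PCDH9. Leaving out any 1 of the 4 arrays kept their changes between 0.73 and 0.75 and between 0.62 and 0.67, with adjusted p of 0.36 or more in limma on 1 residual degree of freedom.

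PCDH17 (gene ID 27253, probe set 16775136), a delta2 protocadherin that gathers at synapses and on growing axons, read 7.35 and 6.71 in the control samples against 7.74 and 7.49 in the SSRP1 siRNA samples. The control arrays differed from each other by more than the nearest values of the groups did. The log2 change was 0.58 ± 0.23 (SE, 95% interval 0.02 to 1.14), with a limma adjusted p of 0.385. Without control replicate 2 the change was 0.26, and it was 0.90 when control replicate 1 was left out.

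PCDH9 and PCDH17 each had a second probe set under the same symbol. The second PCDH17 set read 5.40 and 5.46 with control siRNA and 5.49 and 5.75 with SSRP1 siRNA, a change of 0.19 ± 0.14 (SE) in the fit over all probe sets. The second PCDH9 set read 1.27 and 1.65 against 1.56 and 1.31, overlapping between groups, with a change of -0.03 ± 0.18 (SE). This second PCDH9 set lay near the floor of the arrays, with a mean of 1.45, where a reading can be background. With both probe sets averaged in place of the brighter one, the PCDH9 change was 0.31 and that of PCDH17 0.38. For PCDH9 that average includes the set near the floor.

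The delta2 members PCDH19, PCDH10 and PCDH18 had smaller differences of like size. PCDH19, the gene of an inherited epilepsy with cognitive impairment, read 4.14 and 4.18 in the controls and 4.39 and 4.59 after SSRP1 siRNA, a log2 change of 0.33 ± 0.11 (SE, limma adjusted p = 0.352). PCDH18 read 8.83 and 8.51 against 9.13 and 8.85, a change of 0.32 ± 0.16 (SE, 95% interval -0.07 to 0.72). PCDH10, known as a gene silenced in several cancers, read 7.01 and 6.83 against 7.03 and 7.46, a change of 0.33 ± 0.17 (SE, 95% interval -0.09 to 0.74). For PCDH18 and PCDH10 the groups did not overlap, but their nearest arrays lay only 0.021 and 0.018 apart and the intervals include 0. The PCDH18 change was 0.16 without control replicate 2, 0.18 with SSRP1 siRNA replicate 1 left out and 0.48 when control replicate 1 was dropped. That of PCDH10 was 0.11 without SSRP1 siRNA replicate 2, and dropping replicate 1 of that group gave 0.54.

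PCDH8, the activity-regulated protocadherin of synapses, was the 1 non-clustered member with both SSRP1 siRNA arrays below both controls. It read 3.38 and 3.35 against 3.21 and 3.21, a change of -0.15 ± 0.10 (SE, 95% interval -0.39 to 0.09). The delta1 members PCDH1 and PCDH7 had changes of -0.12 and -0.03 with overlapping groups. PCDH12, known from endothelium, and PCDH15, a part of the tip link between the stereocilia of hair cells, had changes of -0.01 and 0.04. PCDH11X and PCDH11Y, a nearly identical pair whose probe sets may share signal, had changes of 0.09 and 0.05, and their means were among the lowest of all genes, where a reading can be background.

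**Figure D2:**
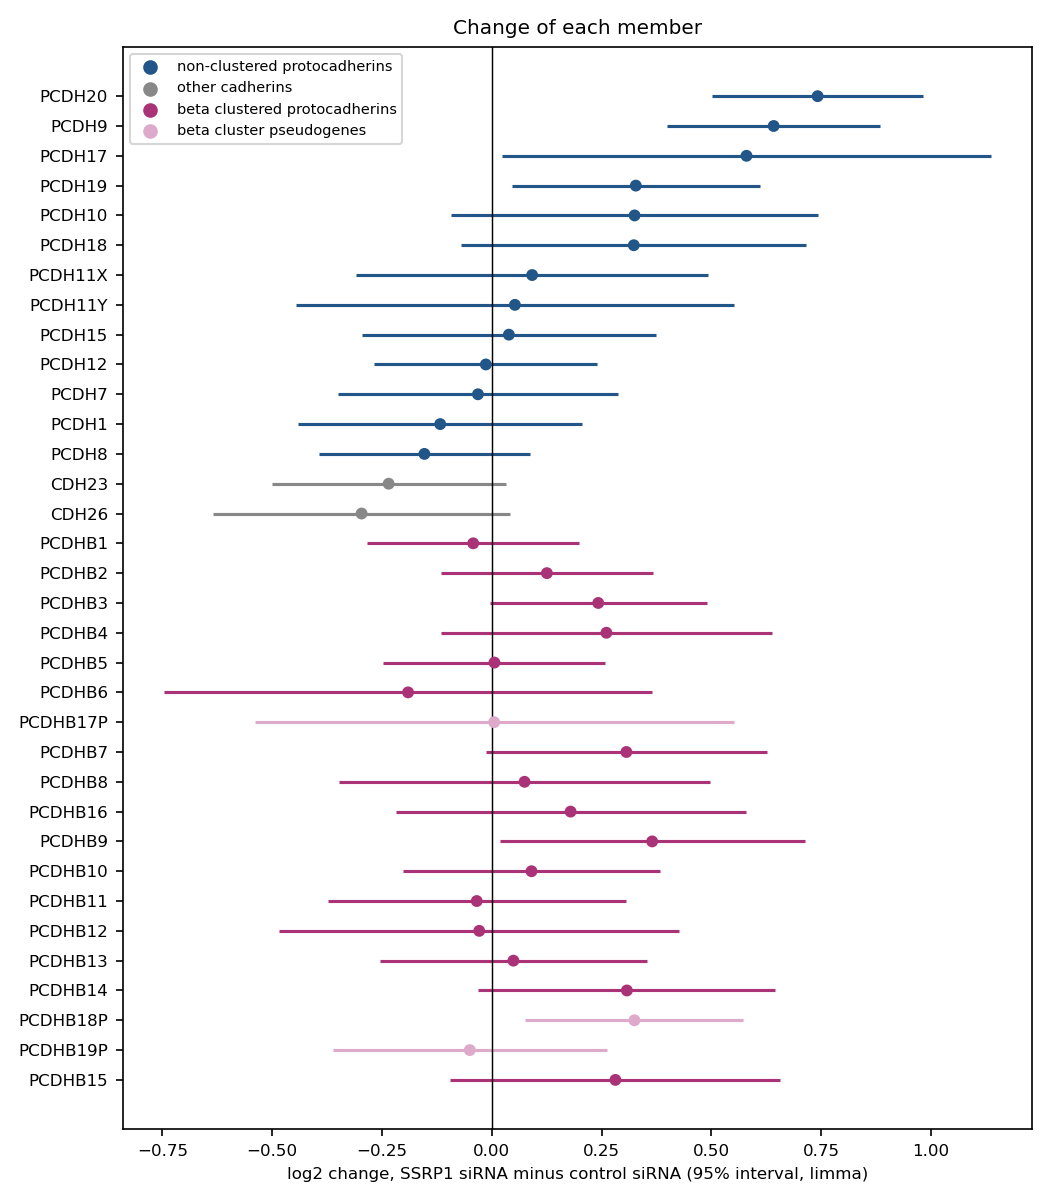
Log2 change of each of the 34 members, SSRP1 siRNA minus control siRNA, with its 95% interval from limma. The x axis is the log2 change and each line is a gene. The intervals lie above 0 for PCDH20, PCDH9, PCDH17, PCDH19, PCDHB9 and PCDHB18P, before adjustment over all genes, and include 0 for all other members.

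In the RefSeq gene order PCDH8, PCDH17, PCDH20 and PCDH9 lie in this order on chromosome 13. Of 14 measured genes from PCDH8 to PCDH9, 10 were not protocadherins, and 4 of these were protein-coding. The protein-coding neighbours OLFM4, PRR20A, DIAPH3 and TDRD3 had changes of -0.09, -0.06, -0.28 and 0.03, with limma adjusted p of 0.50 or more. DIAPH3, a formin that nucleates actin filaments, lies next after PCDH17 among the measured genes and had both SSRP1 siRNA arrays (7.16 and 6.86) below both controls (7.40 and 7.19). The microRNA genes MIR548X2 and MIR4704, between PCDH20 and PCDH9, had changes of 0.53 and 0.44 with limma p of 0.0449 and 0.0397 before and 0.387 and 0.377 after adjustment, and ran from 0.22 to 0.83 and from 0.25 to 0.64 with 1 array left out. They were the 2 of the 10 other genes with an unadjusted p under 0.05, and with the antisense gene DIAPH3-AS1, at 0.27, the 3 with both SSRP1 siRNA arrays above both controls (30%, against 21.8% of all genes). The stretch and its neighbours were chosen after the values of PCDH17, PCDH20 and PCDH9 were seen.

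**Figure D3:**
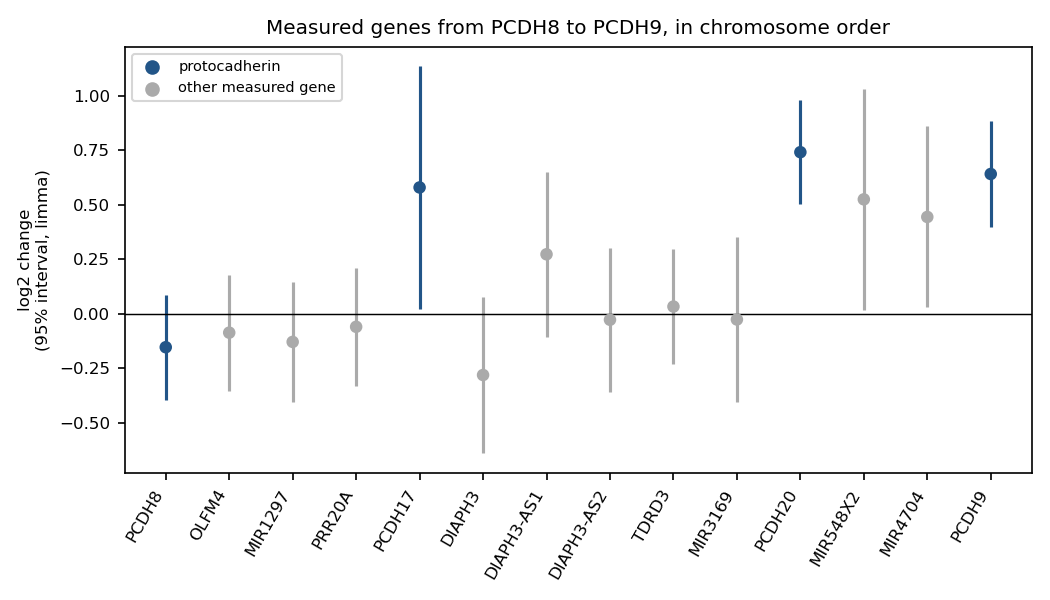
Log2 change with its 95% interval (y axis) of the 14 measured genes from PCDH8 to PCDH9 in chromosome order (x axis, spacing not to scale), with protocadherins in blue and other genes in grey. PCDH17, PCDH20 and PCDH9 lie at 0.58, 0.74 and 0.64, and PCDH8 and the protein-coding neighbours between -0.28 and 0.03. Of the noncoding genes MIR548X2, MIR4704 and DIAPH3-AS1 lie at 0.53, 0.44 and 0.27, and MIR1297, DIAPH3-AS2 and MIR3169 below 0. MIR548X2 and MIR4704 had low readings, which can be background.

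The beta cluster had small changes, more often upward than downward. Of its 16 genes 12 had a change above 0, with a median of 0.11 and a range of -0.19 to 0.37. With 1 array left out, PCDHB16, PCDHB10, PCDHB8, PCDHB13 and PCDHB5 fell below 0 in some fits. In others PCDHB12, PCDHB11 and PCDHB6 rose above 0. Both SSRP1 siRNA arrays lay above both controls for 6 of the 16 genes (37.5%) and below for 1 (6.25%), beside the 21.8% and 22.5% of all genes. PCDHB9 was the 1 beta gene with an unadjusted p under 0.05. It read 3.60 and 3.92 with control siRNA and 4.06 and 4.19 with SSRP1 siRNA, a log2 change of 0.37 ± 0.14 (SE, 95% interval 0.02 to 0.71, limma adjusted p = 0.381). Without control replicate 2 the change was 0.53, and it was 0.20 when control replicate 1 was left out.

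The other beta genes whose groups did not overlap upward were PCDHB14, PCDHB7, PCDHB15, PCDHB3 and PCDHB2. PCDHB14 read 4.84 and 4.52 with control siRNA and 5.04 and 4.94 with SSRP1 siRNA, a change of 0.31 with an interval of -0.03 to 0.65. PCDHB7 read 3.13 and 3.01 against 3.51 and 3.25, a change of 0.31 with an interval of -0.01 to 0.63. PCDHB3 read 3.44 and 3.37 against 3.67 and 3.62, a change of 0.24 with an interval of -0.005 to 0.49. These beta genes encode single-exon adhesion receptors of closely related sequence, and no value above tells their probes' cross-hybridisation apart from their own RNA. PCDHB15 and PCDHB2 had changes of 0.28 and 0.13. Without control replicate 2 the changes of PCDHB14 and PCDHB15 were 0.15 and 0.08, and without SSRP1 siRNA replicate 1 that of PCDHB7 was 0.17.

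PCDHB16 and PCDHB12 stood among the beta genes named for their high array means. PCDHB16 read 6.77 and 6.54 with control siRNA against 7.02 and 6.65, and PCDHB12 read 5.34 and 4.81 against 5.04 and 5.06. Groups overlapped for both, with changes of 0.18 ± 0.16 and -0.03 ± 0.18 (SE). PCDHB6 had the lowest change of the cluster, -0.19 ± 0.23 (SE), with SSRP1 siRNA arrays at 5.16 and 4.54. PCDHB1, the gene whose promoter lacks the shared word, read 2.03 and 2.01 against 1.96 and 2.00, a change of -0.04 with an interval of -0.28 to 0.20. The nearest arrays of its groups lay only 0.014 apart. Its mean was above that of only 8.67% of all genes, where a reading can be background. The remaining beta genes PCDHB4, PCDHB10, PCDHB8, PCDHB13, PCDHB5 and PCDHB11 had changes of 0.26, 0.09, 0.07, 0.05, 0.01 and -0.03, all with overlapping groups.

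Of the 3 pseudogenes of the cluster, PCDHB18P had the higher readings with SSRP1 siRNA. It read 6.81 and 6.72 on the control arrays and 7.09 on each SSRP1 siRNA array, a log2 change of 0.32 ± 0.10 (SE, 95% interval 0.08 to 0.57, limma adjusted p = 0.316). PCDHB18P lies next to PCDHB14 in the cluster, with PCDHB19P and then PCDHB15 on its other side. PCDHB19P read 3.97 on each control array against 3.79 and 4.06, a change of -0.05, and PCDHB17P had a change of 0.005. Neither of these showed a gap between groups.

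CDH23 and CDH26, the 2 cadherins of the set, were lower on both SSRP1 siRNA arrays without passing the test. CDH23, which pairs with PCDH15 in the tip link of hair cells, read 3.64 and 3.71 with control siRNA and 3.37 and 3.51 with SSRP1 siRNA, a change of -0.23 ± 0.11 (SE, 95% interval -0.50 to 0.03). CDH26, an atypical cadherin of epithelium, read 3.42 and 3.71 against 3.19 and 3.35, a change of -0.30 ± 0.14 (SE, 95% interval -0.63 to 0.04). Their limma adjusted p were 0.449 and 0.452. Dropping control replicate 2 gave a CDH26 change of -0.15, and dropping control replicate 1 gave -0.44.

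Cadherin superfamily genes outside the rule held one larger change. Of 21 measured genes of this kind 0 passed the limma test, 3 were higher and 1 lower at an unadjusted p under 0.05 (19.0% in all, against 12.6% of all genes), and the median change was -0.04. FAT4, a giant atypical cadherin of planar cell polarity and growth control, read 5.84 and 5.70 in the control samples against 7.18 and 6.71 in the SSRP1 siRNA samples, a log2 change of 1.18 ± 0.17 (SE, limma adjusted p = 0.113). It passed with a variance trend (limma adjusted p = 0.0207) and with dim genes left out (0.0215). Its ligand DCHS1 read 6.09 and 5.72 against 5.62 and 5.28, a change of -0.46 ± 0.18 (SE, limma adjusted p = 0.385). The DCHS1 change was -0.27 without control replicate 1 and -0.28 without SSRP1 siRNA replicate 2. DCHS1 was picked for description once its value was known. CLSTN2, a synaptic calsyntenin, had a change of 0.61 (limma adjusted p = 0.279), and RET, a receptor kinase with cadherin-like domains, one of 0.36 (limma adjusted p = 0.300). For CLSTN2 the change was 0.37 without control replicate 2, and dropping control replicate 1 gave 0.84. The 7 desmosomal cadherin genes DSC1 to DSC3 and DSG1 to DSG4 had changes between -0.14 and 0.16. Their means, from 1.70 to 2.34, were above those of at most 14.0% of all genes, where a reading can be background.

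Partners at the inner face of cadherins had changes in both directions. Of 21 genes in this list 8 were measured, and CTNNA1, CTNNB1 and CTNND1 were not among them. Of the 8, 0 passed the limma test. At an unadjusted p under 0.05, 2 were higher and 2 lower (50% in all, against 12.6% of all genes). That share rests on few genes, from a list chosen with earlier results of these data known. The median change was -0.12. JUP, or plakoglobin, read 7.49 and 7.54 with control siRNA and 8.03 and 7.88 with SSRP1 siRNA, a change of 0.44 (limma adjusted p = 0.232). The plakophilin gene PKP2 had a change of 0.33. VCL, the actin linker vinculin, read 7.61 and 7.61 against 7.25 and 7.18, a change of -0.39 (limma adjusted p = 0.241). CDC42EP4, an effector of the GTPase CDC42 and not a catenin, was 1 of the 4 genes behind the share of 50%. It had a change of -0.71 (limma adjusted p = 0.113), and it passed with a variance trend (limma adjusted p = 0.0169) and with dim genes left out (0.0202).

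Known regulators of the clustered locus were measured beside the beta genes. Of 14 such genes 0 passed the limma test, 2 were higher and 1 lower at an unadjusted p under 0.05 (21.4% in all, against 12.6% of all genes), with a median change of -0.05. Both SSRP1 siRNA arrays lay below both controls for 7 of them (50%, against 22.5%) and above for 2 (14.3%, against 21.8%). Among the 7 were CTCF, STAG2, RAD21, SMC1A and DNMT1, with small changes of -0.03, -0.06, -0.07, -0.09 and -0.10 and intervals that include 0. CTCF read 8.94 and 8.95 in the controls and 8.92 and 8.90 after SSRP1 siRNA, a change of -0.03 with an interval of -0.27 to 0.21. SMCHD1, a silencer of the clusters, had a change of -0.04. DNMT3B, the methyltransferase that marks clustered protocadherin promoters in the embryo, read 5.66 and 5.59 against 5.29 and 4.86, a change of -0.55 ± 0.16 (SE, limma adjusted p = 0.290), which was -0.34 without SSRP1 siRNA replicate 2 and -0.77 when replicate 1 of that group was left out. DNMT3A had a change of 0.26 and the zinc finger gene WIZ one of 0.30, or 0.19 without SSRP1 siRNA replicate 2. Whether any of these bears on the protocadherin values was not tested.

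Signalling partners and regulators of classical cadherins gave no call. Of 14 measured signalling and processing genes 0 passed and PTK2B, the kinase PYK2 that clustered protocadherins restrain, was the 1 with an unadjusted p under 0.05 (7.14%, against 12.6% of all genes). For 8 of the 14 both SSRP1 siRNA arrays lay above both controls (57.1%, against 21.8% of all genes). For 3 they lay below (21.4%, against 22.5%), and the 14 changes ran from -0.28 to 0.35. PTK2B read 4.22 and 4.28 against 4.53 and 4.67, a change of 0.35 (limma adjusted p = 0.308). The sheddase gene ADAM10 had a change of 0.11, and the WAVE complex gene NCKAP1 one of -0.15. Of 16 measured regulators of classical cadherin transcription 0 passed and 2 (12.5%) had an unadjusted p under 0.05, with SNAI1 at -0.58 and ZEB2 at 0.45 (limma adjusted p of 0.200 and 0.271).

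**Figure D4:**
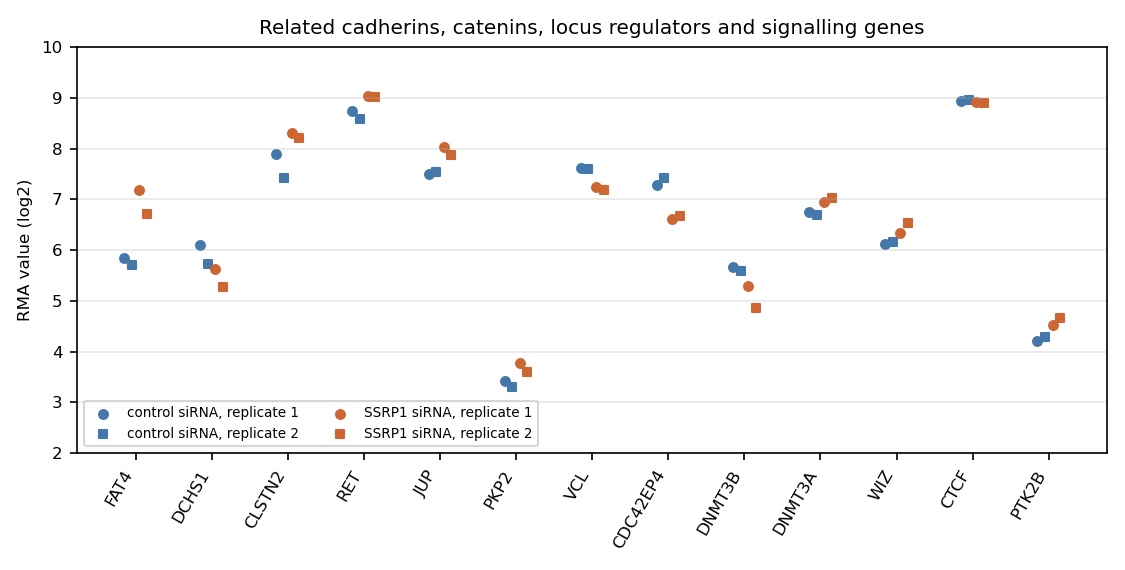
RMA values (log2, y axis) on each of the 4 arrays for related cadherins (FAT4, DCHS1, CLSTN2, RET), partners at the cell cortex (JUP, PKP2, VCL, CDC42EP4), regulators of the clustered locus (DNMT3B, DNMT3A, WIZ, CTCF) and PTK2B. FAT4 shows the widest gap of the genes drawn, from 5.84 and 5.70 to 7.18 and 6.71, and CTCF lies between 8.90 and 8.95 on every array.

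Mesenchymal and stromal genes were read beside these members. Of the 5 mesenchymal state genes VIM, an intermediate filament gene, had a change of 0.76 (limma adjusted p = 0.163), while SNAI2, PRRX1, FN1 and YAP1 had changes of -0.17, -0.07, 0.02 and 0.16, and the median of the list was 0.02. Of 6 stromal markers 2 were measured, LUM with a change of 1.20 (limma adjusted p = 0.184) and DCN with one of -0.04, from group means of 2.62 and 2.57. Among noradrenergic markers 1 of 9 had a change above 0, where 48.3% of all genes did. That marker was CHGA, at 0.34 (limma adjusted p = 0.333), and DBH had the lowest change, -0.77 (limma adjusted p = 0.111). GATA2, ISL1 and CHGB had changes of only -0.06, -0.06 and -0.01, with overlapping groups. Each of them rose above 0 in some fits with 1 array left out, so the count of 1 depends on single arrays. With a variance trend VIM, LUM, DBH and HAND2, another noradrenergic marker, passed, at limma adjusted p of 0.0422, 0.0475, 0.00681 and 0.0488, and VIM and DBH also passed with dim genes left out (0.0408 and 0.0190). Their part in the protocadherin values was not tested.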

How the data were processed

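The deposited table holds log2 values per probe set, made by the authors with RMA, per the submitters' processing notes. The software behind RMA is not given in the sources used here, and the log2 scale was read from the values. All 4 columns were used. RMA as usually run makes the arrays' distributions alike, so a shift shared by all transcripts would not show. Of 46255 probe sets, 15835 had 1 gene symbol in the platform annotation, 0 had several and 30420 were unnamed here and left out of the main test. Where a gene had more than 1, the probe set of highest mean over the arrays was taken. limma 3.58.1 in R 4.3.3 (lmFit, eBayes without trend or robust estimation) compared SSRP1 siRNA with control siRNA over 14812 genes, with Benjamini-Hochberg adjustment over all of them, 2 residual and 3.79 prior degrees of freedom. A gene passed at an adjusted p under 0.05. The method was checked on simulated data. Intervals are 95% from limma, and SE are its standard errors. No filter on dim genes and no detection values were used. The number of arrays limits the precision.

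Described in full were SSRP1, members with an unadjusted p under 0.05 or a change of at least 0.5, the 2 members with the highest mean in each class, and up to 3 genes per related list with an unadjusted p under 0.05. Other genes were named after their values were seen. Members and lists were chosen with earlier results of these data known. Alternatives were the replicate block, variance trend, robust variances, quantile normalization, median centring, the mean of probe sets, genes at or above the median level, all probe sets, an adjusted p under 0.1 and each array left out.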

Additional observations from a re-analysis of the deposited data

How the results depend on the processing

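The count of 14 genes past the test became 6 with the replicate block, 215 with a variance trend, 9 with robust variances, 28 after quantile normalization, 23 after median centring, 179 with dim genes (below the median level) left out, 41 at an adjusted p under 0.1 and 0 over all probe sets in limma, where the smallest adjusted p among the genes' probe sets was 0.0954 and 9.53% of them had an unadjusted p under 0.05. It was 0 in limma without any 1 array, where 8.10 to 11.3% of genes had an unadjusted p under 0.05. The count of 0 members past the test became 2 with a variance trend (PCDH20 and PCDH9). It became 1 (PCDH9) with dim genes (below the median level) left out, a setting that tested 12 members. PCDH20 was not tested in that setting, since its mean was above that of only 41.1% of all genes. The 6 members at an unadjusted p under 0.05 were 10 with the replicate block, 9 of them higher, where 13.9% of all genes had such a p, 4 over all probe sets (9.53%) and 3 to 7 without 1 array, with PCDH20 and PCDH9 among them in each of these fits. The replicate numbers are only shared numbers here: deviations of same-numbered arrays correlated at 0.11 over all genes. The median change of the members, 0.08, was 0.28 with dim genes (below the median level) left out and 0.065 to 0.18 without 1 array. Without 1 array, PCDHB12 ran from -0.30 to 0.24 (above 0 without control replicate 1), PCDHB19P from -0.19 to 0.088 (above 0 without SSRP1 siRNA replicate 1) and PCDHB16 from -0.0083 to 0.37 (below 0 without SSRP1 siRNA replicate 1). PCDHB6 ran from -0.50 to 0.12, PCDHB8 from -0.14 to 0.29 and PCDHB17P from -0.28 to 0.29. Signs also changed for PCDHB5, PCDHB10, PCDHB11, PCDHB13, PCDH1, PCDH7, PCDH11X, PCDH11Y, PCDH12 and PCDH15. The counts of members with a change above 0 thus depend on single arrays. The SSRP1 adjusted p in limma was 0.0569 with the replicate block, 0.0512 with robust variances and 0.144 over all probe sets. Causes were not tested beyond what each setting changes by construction.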

Other observations

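The antisense genes PCDH9-AS2 and PCDH9-AS3, which overlap PCDH9, were read near the floor of the arrays. PCDH9-AS2 read 1.55 and 1.48 with control siRNA and 1.59 and 1.82 with SSRP1 siRNA, and PCDH9-AS3 read 1.41 and 1.55 against 1.32 and 1.47. The lowest values on the arrays lay between 0.50 and 0.64. No difference between groups was read from either gene.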
